A study of Drosophila melanogaster with 12 samples.

Results

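The proteasome subunit genes were taken from the gene count table by name, as every gene whose symbol begins with Prosalpha, Prosbeta, or Rpn or Rpt followed by a number. This gave 47 genes of 17558. Of these, 14 encode the core particle, 18 encode the regulatory particle and 15 are paralogs with R or T after the number. The 32 genes without such a suffix are called canonical subunits here. The name rule uses no measured value.

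The proteasome is the protease that degrades ubiquitin-tagged proteins in the cytoplasm and nucleus. Its core particle is a barrel of outer alpha rings and inner beta rings, and the beta subunits Prosbeta1, Prosbeta2 and Prosbeta5 carry the proteolytic sites. The regulatory particle caps the barrel, where its Rpn subunits bind and deubiquitylate substrates and its Rpt ATPases unfold them. In Drosophila, many of the suffixed paralogs are known from the testis, where they replace canonical subunits during spermatogenesis.

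RNA-seq was carried out on 12 libraries of whole adult females, 3 in each of 4 groups, with 10 females per library collected 7 d after heat shock. ERR cond.2 females carried an FRT-flanked BAC transgene of GFP-tagged ERR in trans to the mutant alleles ERR1 and ERR2. ERR cond.19-4 females carried an ERR locus flanked by FRT sites in the ERR2 background, which also lacks parts of atg18 and CG7979. For the knockouts, females aged 0 to 2 d received heat shocks at 37 °C on consecutive days, 24 h apart. The controls were siblings without heat shock, so heat and ERR loss cannot be told apart. ERR1 is a deletion of 84 bp with point mutations, ERR2 a deletion of the coding region, and the controls of an allele carry the same mutant alleles as its knockouts. The count table numbers the alleles, and number 2 was read as cond.2 and the other as cond.19-4, which no source used here states. The RNA came from 3 independent experiments.

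Library totals ran from 17167432 to 20625801 counts. ERR itself, in CPM (counts scaled to the library size after TMM normalisation over all 12 libraries), measured 8.52, 12.1 and 9.34 in cond.2 controls and 9.53, 10.4 and 10.3 in cond.2 knockouts, so that its count did not check the cond.2 labels. In cond.19-4 it measured 7.75, 6.38 and 5.62 in controls and 4.01, 3.25 and 3.81 in knockouts (edgeR adjusted p = 0.0228). Pfk, the glycolytic enzyme phosphofructokinase, fell in the knockouts of both alleles, with log2 fold changes of -3.21 in cond.2 (SE 0.12, edgeR adjusted p = 3.8e-05) and -2.19 in cond.19-4 (SE 0.08, edgeR adjusted p = 3.3e-09). Markers of germline, follicle cells, yolk, muscle and neurons were all detected. Of 12 testis markers 8 had any count, with 106 to 191 counts in all per library, most of them from bol, and accessory gland markers had at most 5 counts in a library.

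The canonical subunits were well measured. Their counts ran from 364 to 7156 per library, and every canonical subunit except Prosalpha1 had at least 1746. Together they took 0.511% to 0.722% of the counts of a library. The SD of log2 CPM within groups had a median of 0.06 over the 32 canonical subunits, from 0.03 for Rpn9 to 0.14 for Prosalpha1, beside 0.14 over all 10029 genes tested in the fit of 12 libraries. The 4 group means of a subunit lay close together, with the highest 1.03 to 1.5 times the lowest and a median of 1.2 times.

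Levels of different genes were compared per length, as TPM, which divides each count by the deposited gene length and scales every library to the same sum. Prosalpha3, an alpha ring subunit whose amino terminus helps to gate the barrel, had the highest level, with a mean of 456 TPM over 12 libraries. By group it measured 459 ± 18.1 TPM in cond.2 controls, 427 ± 5.95 in cond.2 knockouts, 478 ± 19.8 in cond.19-4 controls and 462 ± 18.1 in cond.19-4 knockouts (SD, n = 3 each). In CPM it measured 341, 334 and 319.7 in cond.2 controls, 308, 316 and 291 in cond.2 knockouts, 321, 338 and 325 in cond.19-4 controls and 318, 321 and 329 in cond.19-4 knockouts. It had the highest TPM of all subunits in each of the 12 libraries. Below it, Prosalpha7, Prosalpha2, Prosbeta4, Prosalpha5, Prosbeta6, Prosbeta1, Prosbeta5, Prosalpha6, Prosbeta3, Prosbeta2, Prosalpha4 and Prosbeta7 followed from 378 to 268 TPM. These core particle means all lay above those of the regulatory particle.

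In the regulatory particle, the deubiquitylase subunit Rpn11 (254 TPM) and the lid subunit Rpn12 (244 TPM) had the highest means. In the 6 control libraries, Rpn11 or Rpn12 lay above the lowest of these core subunits. The remaining ATPases ran from Rpt1 (190.2 TPM) through Rpt2, Rpt3, Rpt5 and Rpt4 to Rpt6 (119 TPM), and the remaining non-ATPases from Rpn13 (166 TPM) through Rpn10, Rpn8, Rpn3, Rpn5, Rpn6, Rpn7 and Rpn9 to the large scaffold subunits Rpn2 (80.0 TPM) and Rpn1 (78.9 TPM). Within each library, the median core subunit had 2.05 to 2.53 times the TPM of the median regulatory subunit. The ranges of neighbours in this order overlapped over the 12 libraries, except for Prosalpha3 (lowest 421 TPM) and Prosalpha7 (highest 410.3), Rpt6 (lowest 102) and Rpn2 (highest 93.1), and Rpn1 (lowest 69.4) and Prosalpha1 (highest 49.7).

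**Figure D1:**
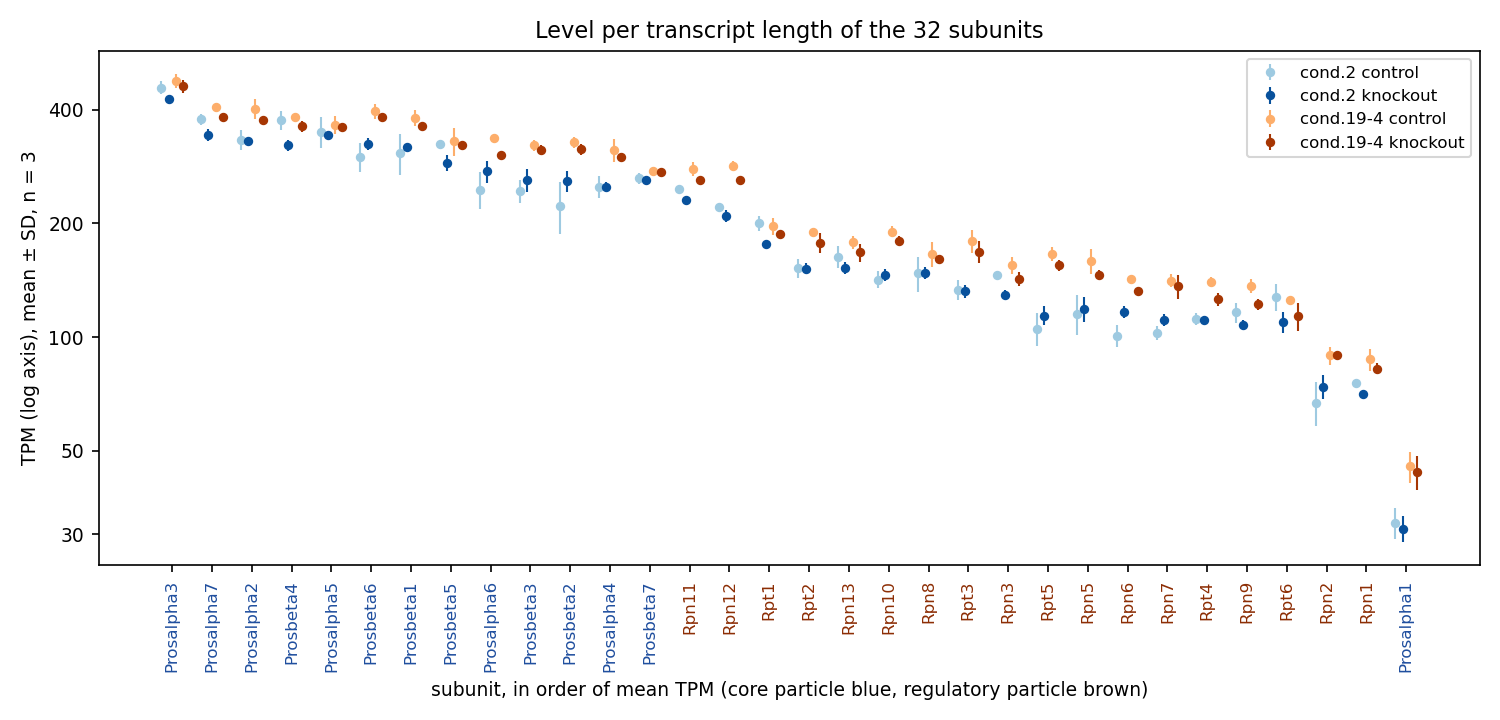
Level per length of the 32 canonical subunits, in TPM on a log axis. Points are means and bars are SDs of 3 libraries in each of the 4 groups, and subunits stand in order of their mean over 12 libraries, from Prosalpha3 at 456 TPM to Prosalpha1 at 38.1 TPM.

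Prosalpha1 was the exception among core subunits, with a mean of 38.1 TPM. Its counts were 441, 370 and 364 in cond.2 controls, 457, 420 and 384 in cond.2 knockouts, 727, 638 and 572 in cond.19-4 controls and 692, 604 and 557 in cond.19-4 knockouts. On chromosome 2R, Prosalpha1 lies at 7827303 to 7828678 of BDGP6, and CG30382, named Prosalpha1R in the current annotation, lies beside it at 7830413 to 7831771. CG30382 does not fall under the name rule and held 199 to 455 counts per library. The table does not show how reads that fit both genes were counted, so the level of Prosalpha1 is uncertain.

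The catalytic subunits were next compared with each other. Prosbeta5, the chymotrypsin-like subunit, measured 284, 268 and 271 CPM in cond.2 controls, 237, 241 and 247 in cond.2 knockouts, 264, 282 and 249 in cond.19-4 controls and 271, 265 and 257 in cond.19-4 knockouts. Prosbeta2, the trypsin-like subunit, measured 146, 184 and 182 CPM in cond.2 controls, 211, 201 and 178 in cond.2 knockouts, 239, 237 and 242 in cond.19-4 controls and 246, 227 and 228 in cond.19-4 knockouts. Prosbeta2 was thus lower in all 6 cond.2 libraries than in all 6 cond.19-4 libraries, whereas the groups of Prosbeta5 overlapped between the stocks except for the cond.2 knockouts, which lay below every other library.

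Prosbeta1, the caspase-like subunit, measured 174, 203 and 206 CPM in cond.2 controls, 203, 206 and 191 in cond.2 knockouts, 225, 237 and 225 in cond.19-4 controls and 226, 226 and 214 in cond.19-4 knockouts, again with no overlap between the stocks. The TPM of Prosbeta2 was 0.564 to 0.754 times that of Prosbeta5 in cond.2 controls, 0.793 to 0.982 times in cond.2 knockouts, 0.925 to 1.07 times in cond.19-4 controls and 0.943 to 1.00 times in cond.19-4 knockouts. That of Prosbeta1 was 0.816 to 1.01, 1.03 to 1.15, 1.11 to 1.14 and 1.12 to 1.21 times Prosbeta5 in cond.2 controls, cond.2 knockouts, cond.19-4 knockouts and cond.19-4 controls. The 3 catalytic subunits therefore did not keep one ratio of transcripts across the groups.

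**Figure D2:**
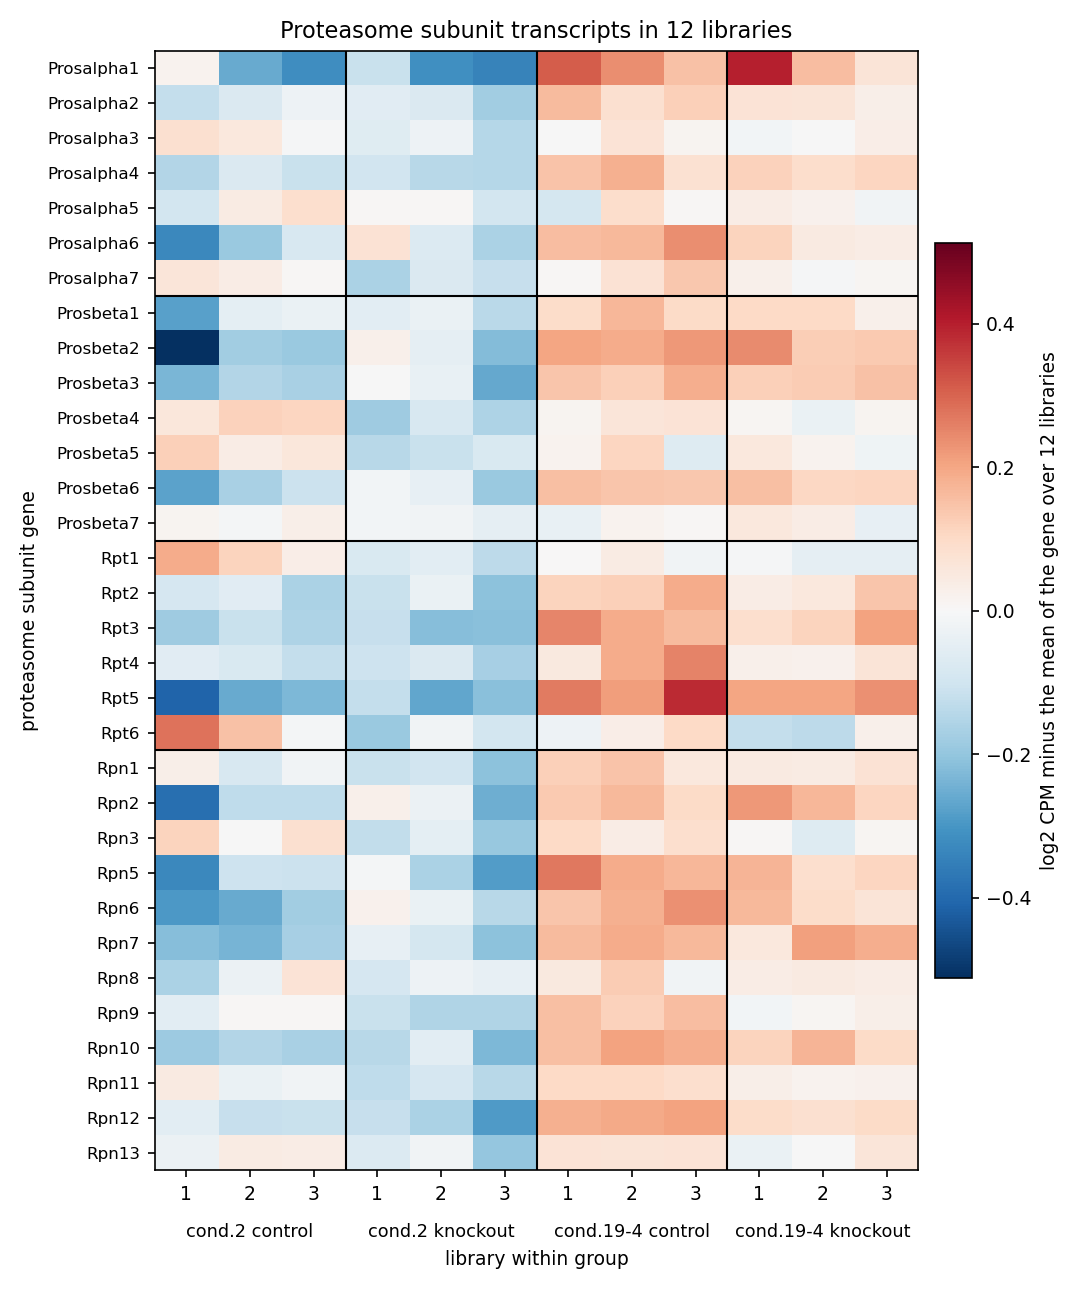
Log2 CPM of the 32 canonical subunits in each of the 12 libraries, as the difference from the mean of that gene over the libraries. Lines divide groups of libraries and, from the top, alpha ring, beta ring, ATPases and non-ATPases. Most subunits, such as Rpt5 and Prosbeta2, were lower in cond.2 than in cond.19-4 libraries, and others, such as Prosalpha5 and Prosbeta7, differed little.

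To ask whether proteasome transcripts depend on ERR in ERR cond.2 females, knockouts were compared with controls. No subunit passed the test. Prosbeta4, a beta ring subunit without a proteolytic site, and Rpt6, an ATPase, had the largest negative differences, and Prosbeta2 and Rpn6, a lid subunit that joins core and regulatory particles, the largest positive ones. The value of Prosbeta2, 0.20, was 0.09 without cond.2 control 1 and 0.04 without the libraries numbered 1 of both cond.2 groups. Of 33 members tested (the canonical subunits and Rpt3R), 0 were called by edgeR at an adjusted p under 0.05, beside 0.631% of all 9660 genes tested (45 lower and 16 higher, or 31 and 24 with total counts as library size), and DESeq2 also called 0. At an unadjusted p under 0.05 there were 6 members with edgeR (18.2%, beside 22.4% of all genes) and 5 with DESeq2 (15.2%, beside 21.3%), and the lowest edgeR adjusted p was 0.149. DESeq2 called 5.92% of all genes.

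Those 6 were Prosbeta4 (log2 fold change -0.24, SE 0.07), Rpt6 (-0.25, SE 0.09), the ATPase Rpt1 (-0.21, SE 0.07), the lid subunit Rpn3 (-0.20, SE 0.07), Prosbeta5 (-0.19, SE 0.07) and Rpn6 (0.19, SE 0.08). Prosbeta4 measured 221, 230.2 and 229 CPM in controls and 187, 201 and 190.3 in knockouts, and the groups did not overlap. Of the canonical subunits, 12 had all 3 knockouts below all 3 controls and 1, Rpn6, had them above. Over all 9660 genes tested, 1336 lay below and 1615 above. In either direction there was no overlap for 13 of 32 subunits, beside 30.5% of all genes. The remaining subunits below were Prosalpha3, Prosalpha7, Prosbeta7, Rpn1, Rpn9, Rpn11 and Rpn12.

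Differences ran from -0.25 to 0.20 over the canonical subunits, and their 95% intervals reached from -0.47 to 0.47. Of these subunits, 21 were below 0 and 11 above, beside 4917 and 4743 of all 9660 genes tested. Median log2 fold changes were -0.04 for the core particle and -0.04 for the regulatory particle, beside -0.01 for all genes tested. With total counts as library size these medians were above 0, at 0.05, 0.05 and 0.08. In a fit of all 12 libraries the same contrast called 3 members, Prosbeta4 (edgeR adjusted p = 0.0140), Rpt1 (edgeR adjusted p = 0.0326) and Rpn3 (edgeR adjusted p = 0.0471), all lower in knockouts. This is 9.09% of the members, beside 6.26% of all genes lower and 7.84% higher in that fit.

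In ERR cond.19-4 females the differences covered a narrower range and no subunit passed the test. The median SE over the canonical subunits was 0.04, beside 0.07 in cond.2. Their median log2 fold change was not smaller, at -0.05 beside -0.04. Of 33 members tested, 0 were called by edgeR, beside 3.7% of 9717 genes, and 0 by DESeq2, beside 4.38%. At an unadjusted p under 0.05 there were 4 members with edgeR (12.1%, beside 15.4% of all genes) and 2 with DESeq2 (6.06%, beside 12.8%). The lid subunit Rpn9 had the lowest p (log2 fold change -0.13, SE 0.04, edgeR adjusted p = 0.124), with 163, 159 and 163 CPM in controls and 145, 147 and 149 in knockouts. The others were Prosalpha6 (-0.12, SE 0.04), Rpn12 (-0.10, SE 0.04) and Rpt4 (-0.12, SE 0.05).

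Differences ran from -0.13 to 0.04 over the canonical subunits, and their 95% intervals reached from -0.24 to 0.18. Of the 32, 29 were below 0, beside 4966 of all 9717 genes tested, and the 3 above were Prosalpha5, Prosbeta7 and Rpn2. The groups did not overlap for 8 of the 32 subunits, all lower in knockouts. Of all 9717 genes, 986 were lower and 1001 higher without overlap, or 20.4% in either direction. Median log2 fold changes were -0.02 for the core particle and -0.06 for the regulatory particle, beside -0.0034 for all genes tested.

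**Figure D3:**
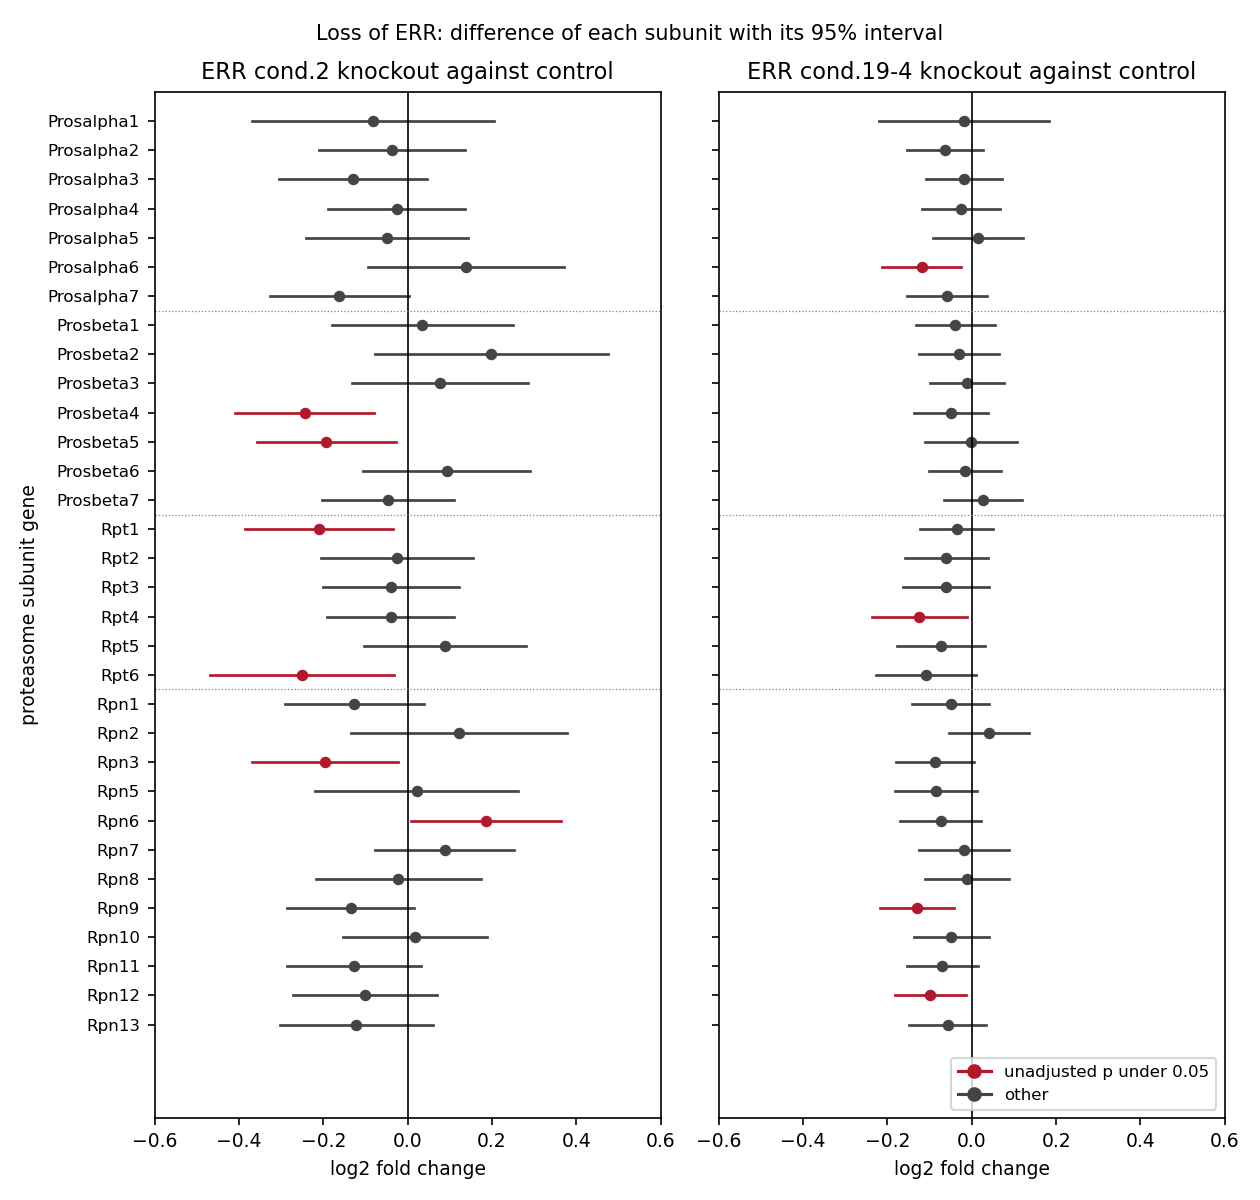
Log2 fold change of each canonical subunit, knockout against control, in ERR cond.2 (left) and ERR cond.19-4 (right) females. Points are edgeR estimates, bars are 95% intervals and red marks an unadjusted p under 0.05, reached by 6 subunits on the left and 4 on the right. None of them passed at an adjusted p under 0.05.

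The knockout effect was then compared between the alleles as an interaction. It was called for 0 of 33 members by edgeR, beside 0.0598% of 10029 genes, and for 0 by DESeq2, beside 4.72%. At an unadjusted p under 0.05 there were 3 members with edgeR (9.09%, beside 22.2% of all genes) and 5 with DESeq2 (15.2%, beside 21.9%). Rpn6 had the lowest p, with a knockout effect 0.27 (SE 0.09) higher in cond.2 on the log2 scale (edgeR adjusted p = 0.126), followed by Prosbeta4 (-0.18, SE 0.07) and Prosalpha6 (0.27, SE 0.11). The 95% intervals of the difference reached from -0.40 to 0.52 over the canonical subunits. After adjustment over all genes no difference between alleles was called for any member, and differences within these intervals were not excluded.

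The stocks themselves differed more than knockouts did from their controls. They differ at once in ERR construct and mutant alleles. Their controls also differ in ERR level, at 8.52 to 12.07 CPM in cond.2 and 5.617 to 7.755 in cond.19-4. These differences and any other difference of genetic background cannot be told apart here. In the comparison of cond.2 controls with cond.19-4 controls, neither of which was heat shocked, 19 of 33 members were lower in cond.2 and 0 were higher, beside 24.2% of all genes lower and 22.7% higher (edgeR). By particle, 8 of 14 core subunits and 11 of 18 regulatory subunits were lower. Median log2 differences were -0.22 for the core particle and -0.25 for the regulatory particle, beside -0.02 for all genes tested. All 3 cond.2 controls lay below all 3 cond.19-4 controls for 22 of 32 canonical subunits, beside 29.4% of all genes.

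Rpt5, an ATPase of the ring that opens the gate of the core, differed most. It measured 117, 130.4 and 133 CPM in cond.2 controls and 188, 181 and 204 in cond.19-4 controls, a log2 difference of -0.59 (SE 0.07, edgeR adjusted p = 4.7e-05). In the knockouts Rpt5 measured 144, 129.7 and 135 CPM with cond.2 and 179.9, 179.6 and 184 with cond.19-4, so that all 6 cond.2 libraries lay below all 6 cond.19-4 libraries.

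By p Rpn6 was next, and by size Prosbeta2 (-0.49), whose values are given above. Rpn6 measured 140.1, 144 and 152 CPM in cond.2 controls and 189.7, 195 and 202 in cond.19-4 controls (log2 difference -0.43, SE 0.06, edgeR adjusted p = 0.000183). Its cond.2 knockouts, at 175, 168 and 156 CPM, lay above their controls and below the cond.19-4 knockouts at 193, 184 and 179.8. The ATPase Rpt3 measured 150.5, 158 and 153 CPM in cond.2 controls and 203, 195 and 191 in cond.19-4 controls (log2 difference -0.35, SE 0.06, edgeR adjusted p = 0.000368). Its knockouts, at 157, 147 and 147 CPM with cond.2 and 181, 185 and 197 with cond.19-4, again did not overlap.

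**Figure D4:**
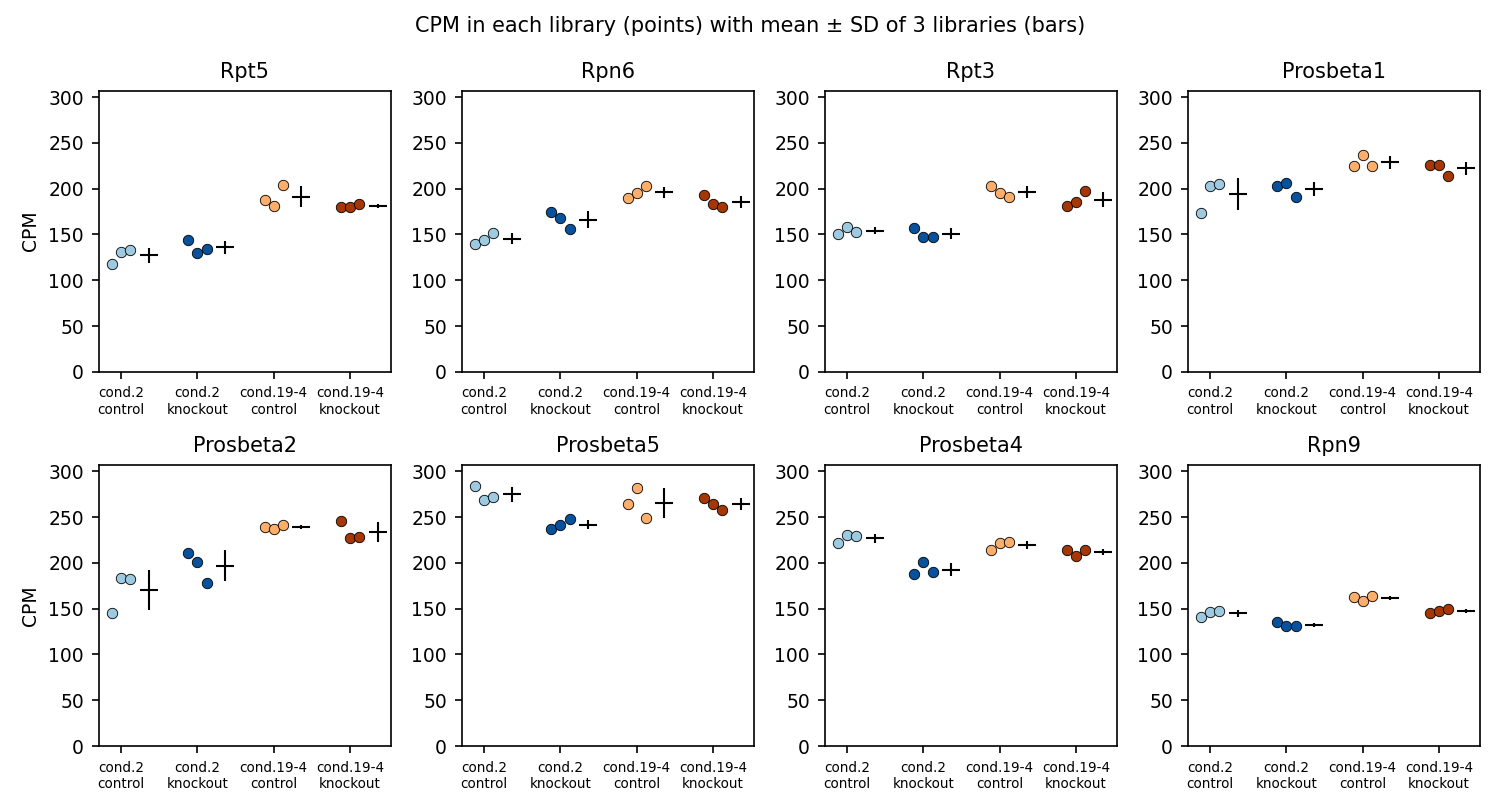
CPM of 8 subunits in each library, with the mean and SD of 3 libraries beside the points. The subunits are the 3 of lowest p between the control groups (Rpt5, Rpn6, Rpt3), the 3 catalytic subunits, and those of lowest p in each knockout comparison (Prosbeta4 in cond.2, Rpn9 in cond.19-4). Rpt5 lay at 117 to 144 CPM in the cond.2 libraries and at 179.6 to 204 in the cond.19-4 libraries.

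Among alpha ring subunits, Prosalpha1, Prosalpha2, Prosalpha4 and Prosalpha6 were lower in cond.2 controls (log2 differences -0.41, -0.20, -0.25 and -0.39), whereas Prosalpha3, Prosalpha5 and Prosalpha7 measured 0.02, 0.01 and -0.04. In the beta ring, Prosbeta1, Prosbeta2, Prosbeta3 and Prosbeta6 were lower (-0.24, -0.49, -0.33 and -0.33), and Prosbeta4, Prosbeta5 and Prosbeta7 measured 0.05, 0.05 and 0.02. Both rings thus held subunits that differed between the stocks and subunits that did not pass the test.

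Among ATPases, Rpt2 and Rpt4 were lower as well as Rpt3 and Rpt5 (-0.24 and -0.25 for Rpt2 and Rpt4), whereas Rpt1 and Rpt6 both measured 0.11. Of the non-ATPases, the scaffold Rpn2 (-0.34), the lid subunits Rpn5 (-0.39), Rpn6, Rpn7 (-0.38), Rpn9 (-0.16) and Rpn12 (-0.29), and the ubiquitin receptor Rpn10 (-0.35) were lower. Those that did not pass were Rpn1 (-0.13), the lid subunit Rpn3 (-0.01), Rpn8, which pairs with Rpn11 (-0.09), Rpn11 (-0.10) and the ubiquitin receptor Rpn13 (-0.05). The 95% intervals of the 13 canonical subunits that did not pass reached from -0.25 to 0.28.

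Other scalings moved this count. With total counts as library size, 25 members were lower, Prosalpha7, Rpn1, Rpn3, Rpn8, Rpn11 and Rpn13 in addition, while the medians moved to -0.38 for the core particle, -0.42 for the regulatory particle and -0.19 for all genes, and the split of all calls from 2429 lower and 2278 higher to 3686 lower and 1529 higher. Leaving out 1 control library at a time gave 16 to 19 calls, beside 1868 to 2170 calls lower over all genes. Without cond.19-4 control 1, Prosalpha1, Prosalpha2 and Rpn9 were not called, without cond.2 control 1, Prosbeta1 and Rpn9 were not, without cond.19-4 control 2, Prosbeta1 was not, and without cond.2 control 3, Prosalpha1 was not and Rpt1 was called as higher in cond.2.

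The same contrast in the heat shocked libraries, which was added after seeing the control result, contrasts other libraries but comes from the same fit of 12 and so shares its scaling and estimate of spread. It called 13 members lower in cond.2 and 0 higher, beside 7.73% of all genes lower and 11.8% higher (edgeR). Of these, 4 were core and 9 regulatory subunits. DESeq2 called 19 in the controls, beside 23.2% of all genes lower and 23.9% higher, and 17 in the knockouts, beside 8.64% lower and 13.6% higher. In both comparisons 12 members were lower, namely Prosalpha1, Prosalpha4, Prosbeta3, Prosbeta6, Rpt2, Rpt3, Rpt5, Rpn5, Rpn7, Rpn9, Rpn10 and Rpn12, which is 63.2% of the 19 and 92.3% of the 13. Rpn1 was called in the knockouts alone, and Prosalpha2, Prosalpha6, Prosbeta1, Prosbeta2, Rpt4, Rpn2 and Rpn6 in the controls alone. The difference between the stock comparisons is the interaction tested above, which was called for none of them. All 32 canonical subunits had a negative difference between the knockouts, beside 5190 of all 10029 genes tested, with a median of -0.16. With 1 library left out this second count ran from 6 to 17, with 6 without cond.2 knockout 3, cond.19-4 knockout 1 or cond.19-4 knockout 2, 7 without cond.19-4 knockout 3, and 9 to 17 without any other library. Calls lower over all genes fell as well, from 775 to 507 without cond.2 knockout 3. They were 415, 399 and 566 without cond.19-4 knockout 1, 2 and 3. With total counts as library size the count of members was 20, while all calls went from 775 lower and 1187 higher to 1072 and 862. In the 6 knockout libraries alone it was 8, beside 626 lower and 1074 higher of all 9770 genes tested.

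**Figure D5:**
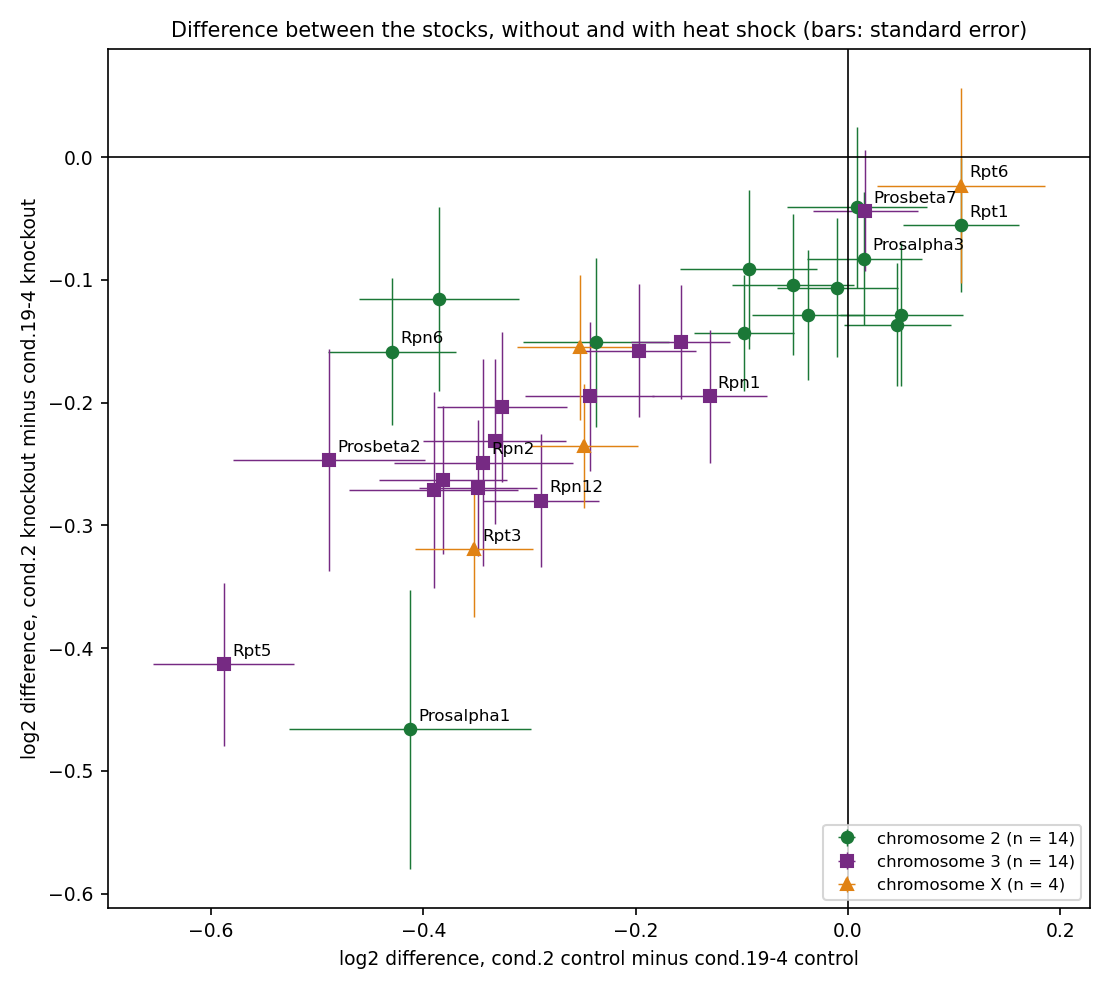
Log2 difference of each canonical subunit between the stocks, in controls on the horizontal axis and in knockouts on the vertical axis, with bars of 1 standard error. Colours mark the chromosome of the gene. Points below 0 are lower in cond.2. Rpt5 lay at -0.59 and -0.41, and Rpt1 and Rpt6 lay to the right of 0 in controls and below 0 in knockouts.

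The subunit genes lie on all large chromosomes, 4 on X, 14 on chromosome 2 (4 on 2L, 10 on 2R) and 14 on chromosome 3 (5 on 3L, 9 on 3R). This grouping was made after the values were seen. On chromosome 3, 12 of 14 canonical subunits were lower in cond.2 controls, beside 25.5% of all genes tested on that chromosome. The exceptions were Prosbeta7 and Rpn1. On chromosome 2, 4 of 14 were lower (Prosalpha1, Prosalpha6, Prosbeta1 and Rpn6), beside 23.3% of all genes, and on X 3 of 4 were lower (Prosalpha4, Rpt3 and Rpt4), beside 23%. In the knockouts the counts were 10 of 14 on chromosome 3 (all genes 8.35%), 1 of 14 on chromosome 2 (all genes 7.03%) and 2 of 4 on X (all genes 7.71%).

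Several measures differed between the stocks in controls, and vitelline membrane genes and muscle markers also did so in knockouts without overlap, whereas the germline, chorion and yolk protein shares overlapped between the knockouts. Vitelline membrane genes, made by follicle cells of the ovary, took 0.252% to 0.610% of the counts in cond.2 controls, 0.8% to 1.55% in cond.2 knockouts, 1.5% to 1.96% in cond.19-4 controls and 1.60% to 1.72% in cond.19-4 knockouts, with all 6 genes detected in each group. Germline markers, 8 of 8 detected, took 0.164% to 0.186%, 0.169% to 0.191%, 0.195% to 0.198% and 0.188% to 0.192% in the same order. Chorion genes, 7 of 7, took 0.516% to 1.33%, 1.37% to 2.51%, 2.17% to 2.74% and 2.25% to 2.34%. Yolk protein genes, 3 of 3, took 5.65% to 8.65%, 2.9% to 5.02%, 2.77% to 3.37% and 2.93% to 2.95%, higher in all cond.2 controls than in cond.19-4 controls. Muscle markers, 6 of 6, took 0.0332% to 0.038%, 0.0392% to 0.0422%, 0.0382% to 0.0476% and 0.0476% to 0.0519%. Neuron markers, 5 of 5, took 0.00214% to 0.00248%, 0.00241% to 0.00266%, 0.00236% to 0.00327% and 0.00295% to 0.00348%. They overlapped between the controls and were lower in cond.2 without overlap between the knockouts. The mitochondrial large ribosomal RNA took 10.4% to 11.7%, 8.11% to 10.2%, 7.21% to 9.14% and 8.67% to 9.08%. Their part in the proteasome result was not tested. In whole-body RNA, fewer cells of a type and less RNA per cell cannot be told apart.

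Within the cond.2 groups, many subunits had their lowest value in the same library. In cond.2 knockout 3, 25 of 32 canonical subunits were the lowest of their group (78.1%), beside 34.1% of all genes tested. This library had the lowest vitelline membrane (0.8%) and chorion (1.373%) shares of its group. Its germline (0.1911%) and yolk protein (5.015%) shares were the highest of the group. In cond.2 control 1, 18 of 32 were the lowest (56.2%), beside 41.7% of all genes. This library had the lowest vitelline membrane, chorion and germline shares of its group and the highest yolk protein share. Whether these shares bear on the subunit values was not tested. A further 11 of 32 were the highest of their group there (34.4%), beside 39% of all genes. Over the 496 pairs of canonical subunits, Pearson's r across the 12 libraries had a median of 0.62 (from -0.52 to 0.98). With group means removed the median was 0.22 (from -0.83 to 0.95). The same r was not computed over all genes. These points share libraries, groups and scaling, and the values are a description.

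The annotation bears on how some of these counts can be read. Of the 32 canonical subunits 16 overlap another gene, and 11 of these 16 were lower in cond.2 controls, beside 8 of the 16 without an overlap. Apart from Rpt1, Rpt6 and Rpn8, which were not called there, each overlap covered at most 14.2% of the subunit gene. Rpt1 lies wholly within CG17985 on the same strand, 91.3% of Rpt6 overlaps CG1801 and 59% of Rpn8 overlaps slik. No source used here says whether strand was used in counting, so reads of these genes and their neighbours may not be separated.

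The suffixed paralogs were at or near 0 in these females. Of 15 paralogs, 8 had 0 counts in all 12 libraries, namely Prosalpha4T1, Prosalpha6T, Prosbeta2R1, Prosbeta4R1, Prosbeta4R2, Prosbeta5R1, Prosbeta5R2 and Rpn12R. The summed counts of all 15 were 18 to 41 per library. Prosalpha3T had 2 counts in cond.2 control 1, Prosalpha4T2 had 1 count in cond.19-4 knockout 1, and Rpn13R had 1 count in cond.19-4 control 3 and 4 in cond.19-4 knockout 3.

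Rpt3R, a paralog of the ATPase Rpt3, was the one with counts in every library and the one tested. It had 20, 19 and 26 counts in cond.2 controls, 13, 28 and 15 in cond.2 knockouts, 31, 25 and 33 in cond.19-4 controls and 21, 27 and 15 in cond.19-4 knockouts, and the groups overlapped. Its log2 fold change was -0.40 (SE 0.36) in cond.2 and -0.46 (SE 0.33) in cond.19-4, neither of which passed (edgeR adjusted p = 0.529 and 0.567). A difference of this size was not detectable at this depth.

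Prosbeta2R2 had 13, 1 and 5 counts in cond.2 controls, 4, 3 and 1 in cond.2 knockouts, 1, 2 and 2 in cond.19-4 controls and 0 in each cond.19-4 knockout. Rpt4R had 0, 1 and 0 counts in cond.2 controls, 2, 0 and 1 in cond.2 knockouts, 2, 2 and 4 in cond.19-4 controls and 3, 2 and 3 in cond.19-4 knockouts. Rpt6R had 0, 0 and 2 counts, 8, 0 and 1, 1 in each library, and 2, 0 and 6 in the same order of groups. These genes were below the count filter and were not tested. The testis markers dj, Mst84Dc, Mst98Ca and Mst98Cb were at 0 in every library.

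Genes that work with the proteasome were read from lists of 40 names, of which 39 were found (Sem1 and CG13779 name the same gene) and 37 were tested. Called by edgeR were 0 in cond.2 knockouts, 0 in cond.19-4 knockouts and 0 in the difference between the alleles. At an unadjusted p under 0.05 there were 7, 1 and 9 of the 37, beside 22.4%, 15.4% and 22.2% of all genes. DESeq2 called 0, 0 and 1, the last being vih. In the control comparison 16 were lower in cond.2 and 2 were higher, and in the knockouts 6 were lower and 4 higher, beside the shares of all genes given above for the subunits. The list medians in the control comparison were -0.32 for 9 partners of the proteasome, -0.17 for 16 genes of ubiquitin and its conjugation, -0.14 for 9 p97 and shuttle factors and -0.03 for 3 transcriptional regulators.

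Among partners, Pomp, the chaperone of core particle assembly, measured 120.1, 128 and 126 CPM in cond.2 controls, 145, 145 and 123 in cond.2 knockouts, 176, 186 and 191 in cond.19-4 controls and 175, 177 and 176 in cond.19-4 knockouts. It was lower in cond.2 controls with no overlap (log2 difference -0.56, SE 0.07, edgeR adjusted p = 7.7e-05). The deubiquitylase Uch-L5 (-0.32), the lid subunit Sem1 (-0.37), the Ecm29 homolog CG8858 (-0.39) and CG12321 (-0.32) were also lower, and PI31, REG, ntc and the deubiquitylase Usp14 were not called. In the knockout comparisons the lowest p of this list belonged to ntc in cond.2 (log2 fold change 0.34, SE 0.17), with -0.02 (SE 0.10) in cond.19-4. CG8858 followed with -0.10 (SE 0.07) in cond.19-4 and 0.25 (SE 0.16) in cond.2, and Pomp had 0.13 (SE 0.09) in cond.2 and -0.06 (SE 0.04) in cond.19-4. None of these passed the test.

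In the ubiquitin list, the ubiquitin-activating enzyme Uba1 and the conjugating enzymes eff, ben, Ubc2, Ubc4 and Ubc6 were lower in cond.2 controls, as was RpL40, a ribosomal protein made as a fusion with ubiquitin. The conjugating enzyme vih measured 52.6, 57.7 and 56.2 CPM in cond.2 controls and 82.3, 68.4 and 64.5 in cond.2 knockouts, and the groups did not overlap (log2 fold change 0.36, SE 0.10, edgeR adjusted p = 0.150). The polyubiquitin gene Ubi-p63E (-0.30, SE 0.10) and Uba1 (0.28, SE 0.10) were next by p in cond.2 and did not pass either. Ubc84D and Ubc87F were not tested.

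Among p97 and shuttle factors, the segregase TER94, its cofactor p47, and the shuttle factors Rad23 and rngo were lower in cond.2 controls, whereas Ubqn, another shuttle factor (log2 difference 0.63), and the peptide N-glycanase Pngl (1.12) were higher. The p97 cofactor Npl4 measured 213, 203 and 202 CPM in cond.19-4 controls and 228, 231 and 221 in cond.19-4 knockouts, with no overlap (log2 fold change 0.14, SE 0.04, edgeR adjusted p = 0.105). In cond.2 the Npl4 knockouts also lay above the controls with no overlap (log2 fold change 0.14, SE 0.07, edgeR adjusted p = 0.272). In cond.2 knockouts Pngl (-0.52, SE 0.18) and rngo (0.24, SE 0.10) did not pass the test. The regulators cnc, the fly member of the Nrf family (-0.11, SE 0.08), its partner maf-S (0.11, SE 0.08) and its inhibitor Keap1 (0.43, SE 0.18) did not pass in cond.2 knockouts either.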

How the data were processed

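Whole-female RNA of 12 libraries (poly(A) selected, paired reads of 150 bp) was analysed, 3 per group. The deposited values are raw gene counts, which the authors made with TopHat alignments and HTSeq. Tool versions, genome build and use of strand are not given here because the sources used do not name them. Members had the coordinates of the Ensembl annotation of BDGP6 for 47 of 47 genes. Groups came from the sample titles.

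Counts of the whole table were fitted in R 4.3.3 with edgeR 4.0.16 (TMM, filterByExpr, quasi-likelihood). Adjusted p-values are those of Benjamini and Hochberg across every gene in the fit, and calls were made under 0.05. Knockouts and controls of 1 allele, 6 libraries, made up each knockout fit. The interaction and the stock comparisons used 1 fit of all 12. TPM was computed from counts and the deposited gene length. Intervals are 95% intervals of the fit. Scripts were tested on simulated data with known changes. Tables were made with pandas 2.3.3 and numpy 2.4.6 and figures with matplotlib 3.10.9, in Python 3.11.15.

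The members and gene lists were chosen with earlier results of these data known. Every member is named, and values per library are given for the 3 lowest p among called members of the control comparison, the catalytic subunits, the highest and lowest TPM and paralogs with a count. Of each partner list the rule names up to 3 genes of lowest p in a knockout comparison. Values per library of the partners, of Prosbeta4 and Rpn9, of lowest p in each knockout comparison, and the partners named from the control comparison were chosen after their values were seen, as were the comparison of the knockouts between stocks and the grouping by chromosome. Alternatives were DESeq2 1.42.0, its size factors, total counts, filters of at least 1 count or of 10 in every library, a replicate block, other sets of libraries, a threshold of 0.01, FPKM in place of TPM (which cannot change a ratio of genes within a library), and each library left out in turn. With 3 libraries against 3, an exact permutation test cannot go below p = 0.1. A planned search of promoters for motifs was not run, and no sequence was used here.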

Additional observations from a re-analysis of the deposited data

How the results depend on the processing

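In both knockout comparisons and in the difference between alleles, the count of members called stayed at 0 under every alternative run, leaving out each library included, except that fitting cond.2 in all 12 libraries called 3. The control comparison kept 16 to 19 members with a library left out and 15 to 25 under the other alternatives, and Rpt5, Rpn6, Rpt3 and Prosbeta2 were called in all 20 alternatives at the threshold of 0.05. The comparison of the knockouts between stocks was less stable. Its count of 13 became 20 with total counts, 8 in the 6 knockout libraries alone, 6 at a threshold of 0.01 and 6 to 17 with a library left out, and the cause was not tested. Calls lower over all genes moved too, from 775 to 1072 with total counts and 626 in the 6 knockout libraries alone. With a library left out they ran from 399 to 945. Deviations of same-numbered libraries from their group means had correlations of -0.47, -0.28 and -0.04 in cond.2 and -0.01, 0.07 and -0.0044 in cond.19-4. Differently numbered libraries reached 0.39 in cond.2. Deviations from a mean of 3 libraries sum to 0 and depend on each other, so these values cannot show whether the numbers pair libraries. With the replicate block the counts were 0 in both knockout comparisons, 19 in the control comparison and 7 between the knockouts. Over pairs of a named gene and an alternative, 71 lost the call and 3 gained it, and no called value reversed, although values that were not called moved and some changed sign. Of the particle medians, 12 moved by more than the spread between libraries, 8 of them with total counts as library size. Over all genes, calls went from 61 with edgeR to 572 with DESeq2 in cond.2 and from 6 to 473 in the difference between alleles, and the fit of 12 libraries called 628 lower and 786 higher in cond.2, beside 53 and 41 in cond.19-4 (101 and 259 in its own fit). Depth limited the paralogs, with at most 41 counts per library in all.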
